A study of Mus musculus with 8 samples.

Results

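The AP-1 genes Fos, Jun, Junb, Fosl1 and Fosl2 were examined in a map of Foxk1 binding in untreated mouse embryonic fibroblasts (MEFs), connective-tissue cells cultured from embryos and grown in DMEM. The series comprised 8 chromatin libraries, of which 3 were immunoprecipitated with a Foxk1 antibody, 3 with IgG as a control antibody and 2 were input made without antibody. No genotype, strain or treatment beyond these is given in the labels, and all groups share the same cells. The only values were those of 1 list with 28933 peaks, which the track line calls Foxk1 versus input, with positions in the mm9 build. Peaks were assigned to a gene when their summit, the position of highest enrichment, fell in a fixed window: 86.74 to 86.90 Mb of chromosome 12 for Fos, 94.64 to 94.80 Mb of chromosome 4 for Jun, 87.44 to 87.56 Mb of chromosome 8 for Junb, 5.40 to 5.50 Mb of chromosome 19 for Fosl1 and 32.38 to 32.52 Mb of chromosome 5 for Fosl2. The 5 windows held 32 of the 28933 peaks, and no window was without a peak. Each peak has 1 value for all libraries together, so no value below has a replicate error, no difference between genes was tested, and read depth is unknown. Values of the IgG libraries were not analysed here, so Foxk1 binding and enrichment that a control antibody would also give cannot be told apart.

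AP-1 is a dimeric transcription factor made of basic leucine zipper proteins of the Jun and Fos families. Jun proteins can pair with each other or with Fos proteins, whereas Fos proteins bind DNA as partners of Jun proteins, and the dimers recognise the sequence TGACTCA. In fibroblasts, Fos, Jun and Junb are classical immediate early genes, transcribed soon after serum or growth factors are added, and Fosl1 (Fra-1) and Fosl2 (Fra-2) follow later and persist longer. Foxk1 is a forkhead transcription factor, and forkhead proteins recognise cores such as TGTTTAC.

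The sequences just upstream of Fos, Jun and Junb are shown because these genes had the highest peaks of the 5, and they are where the letters recognised by AP-1 and forkhead factors can be looked for. They are the 250 bases before the RefSeq start on GRCm38.p6, 5′ to 3′ on the strand of the gene, at chr12:85473640-85473889 (plus strand), chr4:95052223-95052472 (minus strand) and chr8:84978749-84978998 (minus strand). These coordinates belong to a different build from the peaks and were not set against them, so whether a peak covers any of these bases was not determined. Capitals mark the matches named after the sequences.
Fos: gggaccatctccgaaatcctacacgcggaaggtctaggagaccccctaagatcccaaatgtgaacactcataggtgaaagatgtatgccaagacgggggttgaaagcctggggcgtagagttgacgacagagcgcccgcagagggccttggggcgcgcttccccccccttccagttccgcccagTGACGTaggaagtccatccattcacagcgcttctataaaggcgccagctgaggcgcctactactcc
Jun: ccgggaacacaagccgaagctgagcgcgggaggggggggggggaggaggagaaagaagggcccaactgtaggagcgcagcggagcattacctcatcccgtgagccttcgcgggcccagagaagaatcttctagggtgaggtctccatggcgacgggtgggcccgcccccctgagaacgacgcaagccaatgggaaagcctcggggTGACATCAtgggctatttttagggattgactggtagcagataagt
Junb: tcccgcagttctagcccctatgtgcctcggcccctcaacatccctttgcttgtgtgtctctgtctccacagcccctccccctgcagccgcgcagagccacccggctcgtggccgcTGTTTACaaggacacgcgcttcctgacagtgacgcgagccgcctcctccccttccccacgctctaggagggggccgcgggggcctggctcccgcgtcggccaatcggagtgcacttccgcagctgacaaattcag
The Junb sequence held the forkhead core TGTTTAC, from 135 to 129 bases before the start. On either strand this core was found in 3.17% of 32851 RefSeq promoter sequences of the same length, and it was not found in those of Fos, Jun or Fosl2. No match to TGACTCA (in 4.46% of promoters), TGACGTCA (1.55%), TGTTTAT (4.16%) or the CArG box of the serum response element (1.47%) lay in the 250 bases of these 4 genes. After the sequences had been seen, 2 further words were searched. TGACATCA, a word close to both TGACTCA and TGACGTCA, lay in the Jun sequence from 45 to 38 bases before the start and in 2.93% of all promoters. TGACGT, a shorter word contained in TGACGTCA, lay in the Fos sequence from 66 to 61 bases before the start and in 6.47% of all promoters. Both strands were searched for every word. A match describes the letters only. Bases further upstream were not searched, so a missing match, that of the CArG box at Fos included, says nothing of sites there.

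Among the Jun family, Junb, which encodes a Jun protein often described as a weaker activator than Jun itself, had the highest peak of all 5 windows. It lay on chromosome 8 from 87502543 to 87503002, and its signal value, the authors' own measure of the strength of a peak, which has no stated unit, was 247. It ranked 16 of 28933 in the whole list, was the highest of the 1480 peaks on chromosome 8 and had the lowest q-value in the list, 0.00014. The second Junb peak, from 87489754 to 87490213, had a signal value of 46.97 and shared that q-value. The next, from 87508375 to 87508834, had a signal value of 33.99 and a q-value of 0.000499. The fourth peak, from 87503691 to 87504150, was among the weakest of the list, with a signal value of 11.8 and rank 26888, although its summit lay only 1148 bp from that of the highest. The highest Junb peak thus stood 5.26 times above the next in its window, the widest such step among the 5 genes.

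Jun, the founding member of the family, carried 8 peaks, of which the highest lay almost at the centre of its window, on chromosome 4 from 94719725 to 94720184. Its signal value was 55.9, its rank 1819 in the list and 74 on chromosome 4, and its q-value the lowest, 0.00014. A second peak followed at a distance of 807 bp, from 94718918 to 94719377, with a signal value of 27.4. Of all peaks in the list, 13.5% had a neighbour as close as this. The next, from 94668090 to 94668549, had a signal value of 24.1 and overlapped another of 15.7 by 141 bp, at a distance of 51.6 kb from the highest. The summits of this pair were 319 bp apart, and 1.02% of all peaks had a neighbour as close. The 5 peaks of Jun below these 3 had signal values from 12.1 to 15.7, all under the list median of 17.8. Jun therefore showed 2 close pairs, the stronger of them near the centre of the window, and 4 single peaks of signal values from 12.1 to 13.6.

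In the Fos family, Fos had the fewest peaks, 3, but all were above the list median. The highest was on chromosome 12 from 86796251 to 86796710 and reached 57.5 in signal value, rank 1715 in the list and rank 29 of the 725 peaks on chromosome 12. Its q-value was the lowest, 0.00014. The second, from 86812999 to 86813458, reached 36.1, with a q-value of 0.000557. The remaining one, from 86882100 to 86882559, had a signal value of 29.9 and a q-value of 0.000555. These summits stood alone, 16.7 kb and 69.1 kb apart, which differs from the close pairs at Jun and Junb.

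Fosl1, whose protein lacks the strong activation domain of Fos, had the most peaks, 12 in a window of 100 kb, and none reached a signal value of 50. The highest 2 were of nearly the same height, with signal values of 40.2 on chromosome 19 from 5432916 to 5433375 and 38.2 from 5429722 to 5430181. Their ranks in the list were 3604 and 4010, and neither had the lowest q-value. The next, from 5457437 to 5457896, had a signal value of 25.9. The other 9 had signal values from 11.6 to 21.9, and 8 of these 9 were below the list median. A group of 6 peaks lay within 5.84 kb, between summits at 5428258 and 5434097, and included both of the highest. In it, 2 pairs overlapped, with summits 325 and 369 bp apart, distances within which only 1.18% and 2.35% of all peaks had a neighbour. Fosl1 was therefore the gene with many peaks of low to moderate height rather than a single dominant one.

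Fosl2, the other Fra gene, had 5 peaks in 2 groups. The first group held the highest, on chromosome 5 from 32435910 to 32436369, whose signal value was 36.8, with rank 4327 in the list and a q-value of 0.000578. With it lay peaks from 32437933 to 32438392 and from 32441675 to 32442134, with signal values of 20.03 and 18.8, so that 3 summits fell within 5.77 kb. The second group lay 52.8 kb further along. It held a peak of 23.2 from 32498197 to 32498656 and a peak of 15.4 from 32494498 to 32494957. Of the 5, only the last was below the list median, and none reached a signal value of 50.

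**Figure D1:**
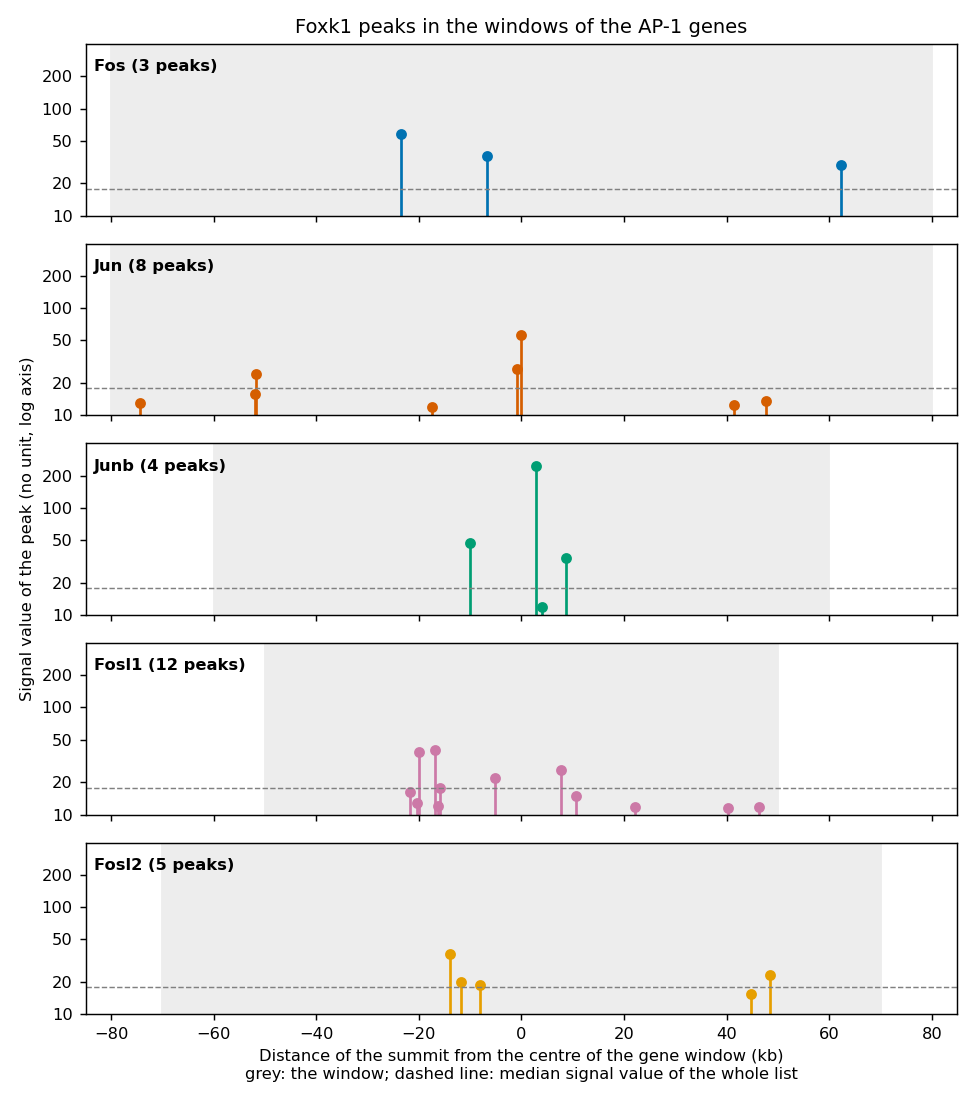
Each panel shows the peaks of 1 gene as points with stems: signal value (log axis) against the distance in kb of the summit from the centre of the gene window, with the window in grey and the list median of 17.8 as a dashed line. Junb has 4 peaks, the highest of 247, Fosl1 has 12 peaks of at most 40.2, and Fos has 3 separate peaks.

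By its highest peak the order of the genes was Junb (247), Fos (57.5), Jun (55.9), Fosl1 (40.2) and Fosl2 (36.8). Junb stood 4.29 times above Fos, whereas the 4 genes after Junb lay within a range of 1.56 times. Without replicates, the order among these 4 has no error to be read against. Counting all peaks of the full windows, the order was Fosl1, Jun, Fosl2, Junb and Fos. Below Fosl1 this order changed with the peaks counted: at a q-value of at most 0.001 the counts were 5 for Fosl1, 4 for Fosl2 and 3 each for Jun, Junb and Fos. In the central 50% of each window Junb, with 4, came after Fosl1 and above the 3 of Jun and of Fosl2. Fosl1 and Jun together supplied 20 of the 32 peaks (62.5%), of which 13 were below the list median, against 2 of the 12 peaks of the other 3 genes. In the whole list, 50% of peaks are at or above this median. Fosl1 and Jun were set apart by these counts themselves, and the difference was not tested.

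As a set the 32 peaks resembled the list as a whole in height. Their median signal value was 19.4, against 17.8 for all peaks, and 17 of 32 (53.1%) were at or above the list median, which 50% of all peaks are by definition. Signal values of 50 or more were found for 3 of 32 (9.38%), 1 each for Junb, Fos and Jun, against 7.97% of all peaks. The lowest q-value was given to 4 of 32 (12.5%), against 12.3% of the list. These shares are near the background and show nothing particular to the 5 genes. Another summit less than 2000 bp away was found for 12 of 32 (37.5%), against 25.8% of the list: 6 at Fosl1, 4 at Jun, 2 at Junb and none at Fos or Fosl2. At Fosl2 the closest summits lay 2023 bp apart, just beyond this limit. Joining summits less than 2000 bp apart left 25 regions.

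**Figure D2:**
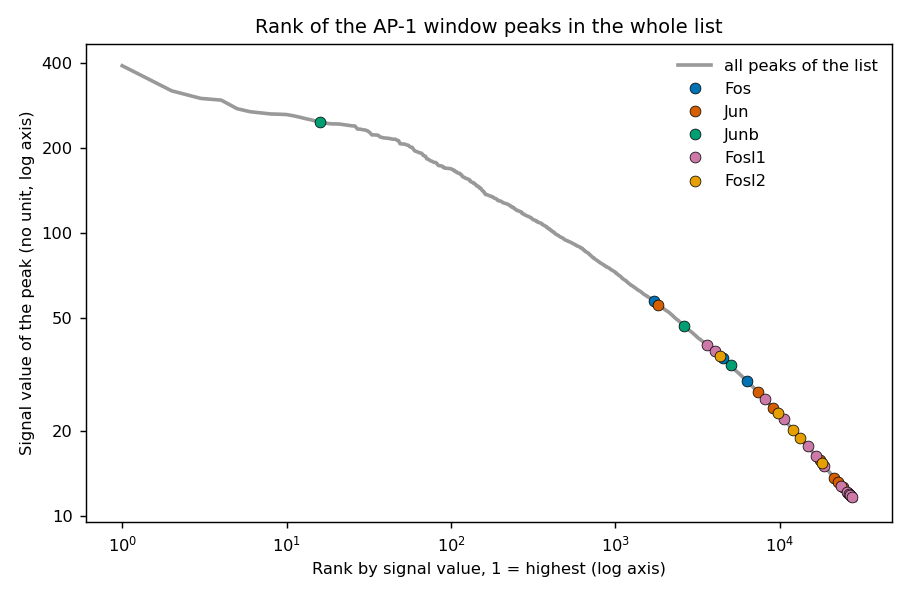
Signal value against rank in the list, both on log axes, for all 28933 peaks (grey line) and the peaks of the 5 gene windows (coloured points). The highest Junb peak lies at rank 16, and the next member, the highest Fos peak, at rank 1715.

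Peak density was next compared with the average of the whole chromosome, the window included, as peaks per 100 kb, since the windows differ in width. Fosl1 had 12 peaks per 100 kb, Jun 5.0, Fosl2 3.57, Junb 3.33 and Fos 1.88. All 5 exceeded the average of their chromosome, by 2.80 times for Fosl2, 2.95 for Junb, 3.14 for Fos, 5.48 for Fosl1 and 5.90 for Jun. Among stretches of the same width on the same chromosome, as many summits were found in 13.6% for Fosl2, 13.8% for Junb and 13.6% for Fos. For Fosl1 and Jun the shares were 1.47% and 2.57%. The share of all stretches above their chromosome average was not computed. The chromosome averages were 0.598 on chromosome 12, 0.847 on chromosome 4, 1.13 on chromosome 8, 1.28 on chromosome 5 and 2.19 on chromosome 19. Averages include stretches without genes and sequence to which reads cannot be assigned, and the part of these in the ratios was not tested.

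Stretches of the genome of the same width, laid end to end over chromosomes 1 to 19 and X, gave a second description. As many as 12 summits in 100 kb were found in 0.148% of 26340 stretches over all these chromosomes. The share for Fosl1 was 1.47% among stretches of its own chromosome 19, and 1.42% when only peaks with a q-value of at most 0.001 were counted. The 8 summits of Jun were reached in 4.15% of stretches of 160 kb, but at a q-value of at most 0.001 Jun kept 3 summits and its share was 12.7%, the same as for Fos. The 5 of Fosl2 were reached in 10.5% of stretches of 140 kb. The 4 of Junb were reached in 12.6% of stretches of 120 kb, and the 3 of Fos in 26.1% of those of 160 kb. For the highest peak the picture changed. A signal value as high as that of Junb was found in 0.0729% of stretches, or 16 of 21948. These hold the 16 highest peaks of the list, that of Junb included, so this share restates its rank of 16. For Fos the share was 8.86%, for Jun 9.31%, for Fosl1 10.9% and for Fosl2 16.6%. Between 47.0% and 56.9% of stretches, depending on their width, had no peak at all. Stretches were not matched for gene content, and those over the gene windows themselves were included.

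**Figure D3:**
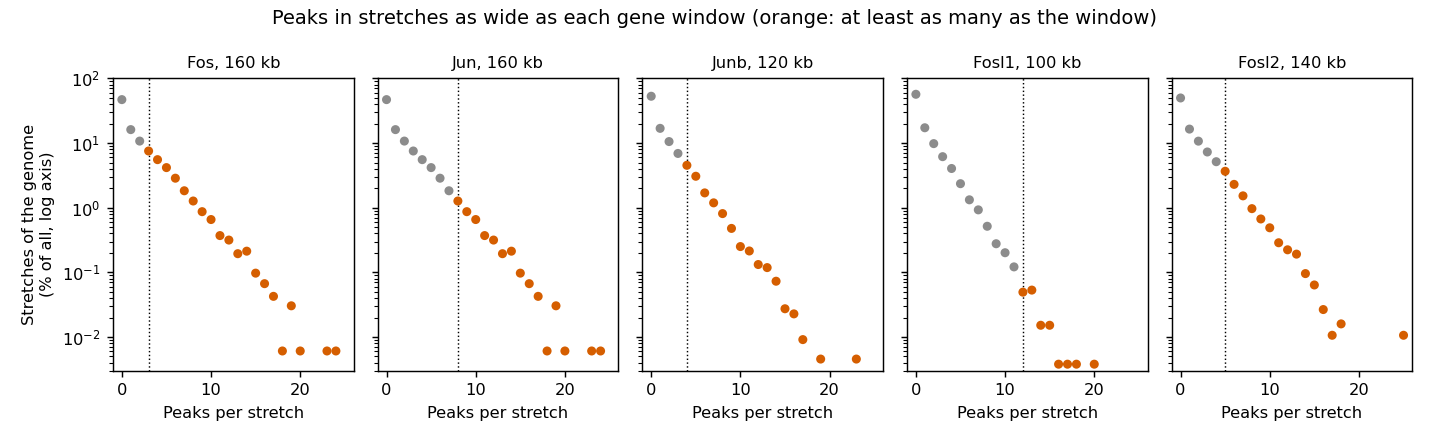
Each panel shows, for stretches as wide as 1 gene window, the percentage of stretches (log axis) with each number of peaks; orange points are numbers at least as high as in the window, whose count is the dotted line. The orange points make up 0.148% of stretches for Fosl1 and 26.1% for Fos.

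Flanks as wide as each window, on either side of it, showed where the density was local. Jun had 8 peaks against 1 in the flank before and 4 in the flank after, and Fosl1 had 12 against 7 and 1. Fos had 3, as many as the flank before it, and 1 lay in the flank after. Junb, with 4, had fewer than the 7 of the flank after it, and Fosl2, with 5, fewer than the 7 of the flank before it. In height, 4 of the 5 windows held a higher peak than either flank. The share of all stretches that exceed both their neighbours, in count or in height, was not computed, so neither comparison has a background. At Junb the highest flank peaks had signal values of 19.1 and 16.6 beside 247, at Fos 21.1 and 12.3 beside 57.5, and at Jun 11.7 and 14.8 beside 55.9. At Fosl2 the flanks reached 33.0 and 12.9 beside 36.8. Fosl1 was the exception: the flank before it held a peak of 201, rank 58 in the list, on chromosome 19 from 5388499 to 5388958.

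**Figure D4:**
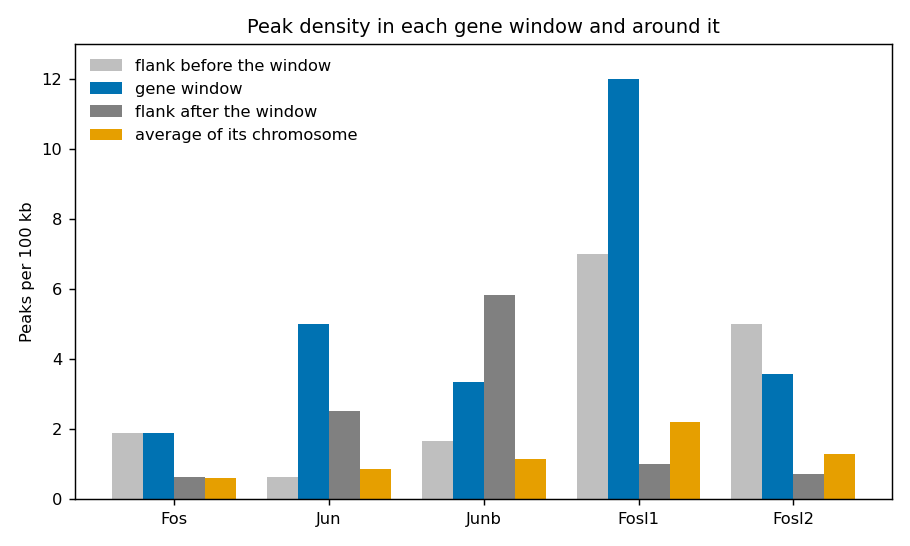
Bars give peaks per 100 kb in each gene window (blue), in the flanks of equal width before (light grey) and after it (dark grey), and on its whole chromosome (orange). The windows of Jun and Fosl1 stand above both flanks, whereas Fos equals its flank before, Junb lies below its flank after and Fosl2 below its flank before.

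Just beyond the window edges, the nearest peak was 0.622 kb from the upper edge of the Junb window, with a signal value of 14.5, and would have raised its count to 5. At Fosl2 a peak of 33.0 lay 6.70 kb before the window, and at Fosl1 a peak of 25.5 lay 6.97 kb before it. The Jun window was the most isolated on its lower side, where the nearest peak lay 151 kb away. In RefSeq's gene order on GRCm38.p6, the protein-coding neighbours are Tmed10 and Jdp2 for Fos, Mysm1 and Fggy for Jun, Prdx2 and Hook2 for Junb, AI837181 and Ccdc85b for Fosl1, and Babam2 and Plb1 for Fosl2. Jdp2 itself encodes a basic leucine zipper protein that dimerises with Jun. An mm9 annotation was not used here, so the peaks are placed in a window and not in a promoter, exon or intron, and a peak may lie at a neighbouring gene.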

How the data were processed

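Bowtie and the mm9 build are named in the submitters' processing notes. The peak caller and whether libraries were pooled for it are not stated in the labels or the file header. Each deposited peak has a signal value, which is a score of unstated scale, and a linear q-value from the authors. All peaks are 460 bp wide with the summit at the centre, and coordinates are printed 1-based.

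From these, summits inside each window were counted and ranked by signal value. Equal stretches were laid from the first base of each chromosome, whose length was taken as its highest peak end, and only full ones were used. Named were all peaks in windows of up to 5, and in fuller ones the 3 highest plus any with a signal value of at least 50 or the lowest q-value. The members, windows and word lists were chosen with earlier results of these data known. Depth is unknown, and no difference was tested. The only intervals were exact 95% binomial ranges of the shares of stretches, used to say which alternatives moved a share. Planned positions relative to genes, and counts at other AP-1 genes, were not run, because an mm9 annotation was not used; protein sequences were not used either. RefSeq (GRCm38.p6) gave promoter sequences for 4 of the 5 genes. The counting procedure was tested on simulated lists. Python 3.11.15, numpy 2.4.6, pandas 2.3.3 and matplotlib 3.10.9 were used, with scipy 1.17.1 for the binomial ranges.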

Additional observations from a re-analysis of the deposited data

How the results depend on the processing

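The highest signal value of each window was the same in the central part of 50% of its width and with any overlap in place of the summit. Any overlap and joining summits less than 2000 bp apart also kept each count within 1.5 times. Weak peaks carried the counts of Jun and Fosl1: at a q-value of at most 0.001 these fell from 8 to 3 and from 12 to 5, and at or above the median signal value to 3 and 4. The central part held 3 peaks for Jun and 3 of 5 for Fosl2, and the central 100 kb, chosen after seeing the data, 5 for Jun. The order of the genes by count below Fosl1 thus changed.

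The share of stretches with as many peaks, in the order Fos, Jun, Junb, Fosl1, Fosl2, was 13.6%, 2.57%, 13.8%, 1.47% and 13.6% on the gene's own chromosome, 49.3%, 7.83%, 26.9%, 0.343% and 21.0% among stretches with a peak, 12.7%, 12.7%, 8.39%, 1.42% and 5.59% at a q-value of at most 0.001, and 23.6%, 5.84%, 16.9%, 0.376% and 7.45% with close summits joined. Fosl1 had the lowest share in each. The share with as high a signal value, in the same order, was 3.70%, 7.0%, 0.0915%, 24.5% and 21.4% on the gene's own chromosome. Among stretches with a peak it was 16.7%, 17.6%, 0.155%, 25.3% and 33.0%. Junb had the lowest share in each. Its peak was the highest on chromosome 8, so the only stretch counted there was the one that held it. Laying stretches from a different start, which counts the same peaks again, moved none beyond its binomial range. Over all alternatives, 20 shares by count moved and 5 did not, and 9 shares by height moved and 6 did not. The binomial range treats stretches as independent, which neighbouring ones need not be.

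No paired analysis was possible because the list holds no value per library, which also prevents leaving out single replicates. A stretch without a peak had none detected at the authors' threshold and an unknown depth.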
